A study of Rattus norvegicus with 12 samples.

Results

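This report describes 57 genes that carry a cell through mitosis: mitotic cyclins and entry kinases, the spindle checkpoint, the chromosomal passenger complex, centromere and kinetochore proteins, spindle motors, condensin and chromosome proteins, and the machinery of cytokinesis. Members were the genes of a list of 58 whose symbol stands in the gene name column of the arrays. Ncaph, the other gene listed, matched no probe. The 57 genes are part of 25626 named genes on the array, and all 57 were among the 16382 genes tested. They were read by 85 probes, of which 84 passed the filter on dim probes; the probe left out was a second probe of Espl1.

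RNA came from calvarial bone, the flat bone of the skull roof, of 10-week-old rats 24 h after surgery, and was hybridised to 12 single-colour Agilent arrays, 4 per group. For the bur group a rotating bur cut out 8 by 3 mm of bone, and for the laser group the same area was removed by 3 passes of an Er:YAG laser, an infrared laser whose light water absorbs strongly, at 127 mJ per pulse and 20 Hz. Control rats lost the periosteum, which is the membrane covering bone, and their bone was not cut. The control rats thus also had surgery, and the labels give no strain, sex or genotype. Whether each of the 4 samples per group is its own animal is not stated, so each p-value measures only the spread between these samples.

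Most of these genes are silent in resting cells and are switched on together late in the cell cycle, in G2 and M phase. Cyclin B with the kinase Cdk1 starts mitosis, kinetochores tie chromosomes to spindle microtubules, and the spindle checkpoint holds the cell until all are attached. The anaphase-promoting complex then has securin and the cyclins destroyed, separase cuts the cohesin that joins sister chromatids, and a contractile ring divides the cell. Many of their promoters carry a CCAAT box, bound by NF-Y, and a cell cycle genes homology region (CHR), bound by the DREAM complex in resting cells and by the B-Myb and MuvB complex in dividing ones. In calvaria the marrow spaces hold dividing blood cell precursors, and the bone surfaces hold osteoprogenitors.

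Slide 1 carried the control arrays in row 1 and the bur arrays in row 2, so row and bur treatment cannot be told apart, and slide 2, scanned apart, carried the laser arrays. In both laser comparisons the slide and the treatment cannot be told apart. Before normalization the median processed signal was 18.7 to 28.3 on bur arrays, 16.5 to 43.2 on control arrays and 55.6 to 81.9 on laser arrays, and no spot was saturated. Markers of bone were read well above background: 8 of 9 osteoblast markers, such as Bglap and Ibsp, passed on all 12 arrays, and so did the osteocyte markers Dmp1, Mepe, Sost and Pdpn. Sp7 passed on 2 of 4 control arrays, and the osteocyte markers Phex and Fgf23 passed on 1 control array each, Fgf23 on no cut array. Control 1 and control 4 stood apart by a mean log2 level of 7.85 and 7.27 over 7 neural and glial markers, against 4.34 to 6.24 on the other 10 arrays. Without these 2 arrays the counts of mitotic genes given below were 49 lower for bur, 35 lower and 1 higher for laser, and 13 higher for laser against bur.

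Most mitotic genes were lower 24 h after bur drilling. Of the 57 genes, 50 fell against control, none rose and 7 did not pass (limma, Benjamini-Hochberg adjusted p under 0.05 over all genes tested, called here). Of all 16382 genes tested, 23.4% were called: 9.74% lower and 13.7% higher, or 1596 and 2241 genes. With each array scaled to its 75th percentile in place of quantile normalization, 2262 genes were lower and 1655 higher, the median log2 fold change of all genes moved from 0.08 to -0.08, and 55 mitotic genes were lower. The median log2 fold change of the 57 genes was -1.18, from -1.67 for Cdca8 to 0.10 for Cdc25c, and 56 values were below 0. In 48 of the genes all 4 bur arrays lay below all 4 control arrays, against 9.74% of all genes.

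After laser ablation most of them were lower as well. Against control 43 of the 57 genes fell, 1 rose and 13 did not pass, beside 34.4% of all genes called, 16.2% lower and 18.3% higher. The median log2 fold change of the genes was -0.78, from -1.77 for Espl1 to 1.77 for Smc4, and that of all genes was 0.01. All 4 laser arrays lay below all 4 control arrays for 39 genes, against 17.0% of all genes. Both comparisons use the same 4 control arrays.

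The mean log2 level over the 57 genes was 9.003 to 9.229 on control arrays, 7.72 to 8.22 on bur arrays and 8.19 to 8.49 on laser arrays. The control arrays did not overlap with either cut group, and bur 1, the highest bur array, lay just above laser 3, the lowest laser array. The summed signal of the 57 genes was 67800 to 86680 on control, 31950 to 43880 on bur and 78100 to 83860 on laser arrays, so by this measure laser arrays lay within the control range. Without Smc4, whose probe is very bright, it was 56310 to 64480, 19040 to 28340 and 25310 to 30790, a split made after the values were seen. Markers of erythroid precursors, the red cell lineage of marrow, moved alongside: their mean level was 10.66 to 11.30 on control, 8.72 to 9.88 on bur and 9.41 to 9.62 on laser arrays, and 17 of 17 fell after the bur and 16 of 17 after the laser. Their summed signal was 167000 to 201200 on control, 46990 to 100700 on bur and 57950 to 74940 on laser arrays, and all were well above background on all arrays except Ermap, on 3 of 4 bur arrays. Bur 4 was the lowest array for both lists. The part of erythroid cells in the fall of the mitotic genes was not tested. In bulk RNA, fewer cells of a type and less RNA per cell cannot be told apart.

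**Figure D1:**
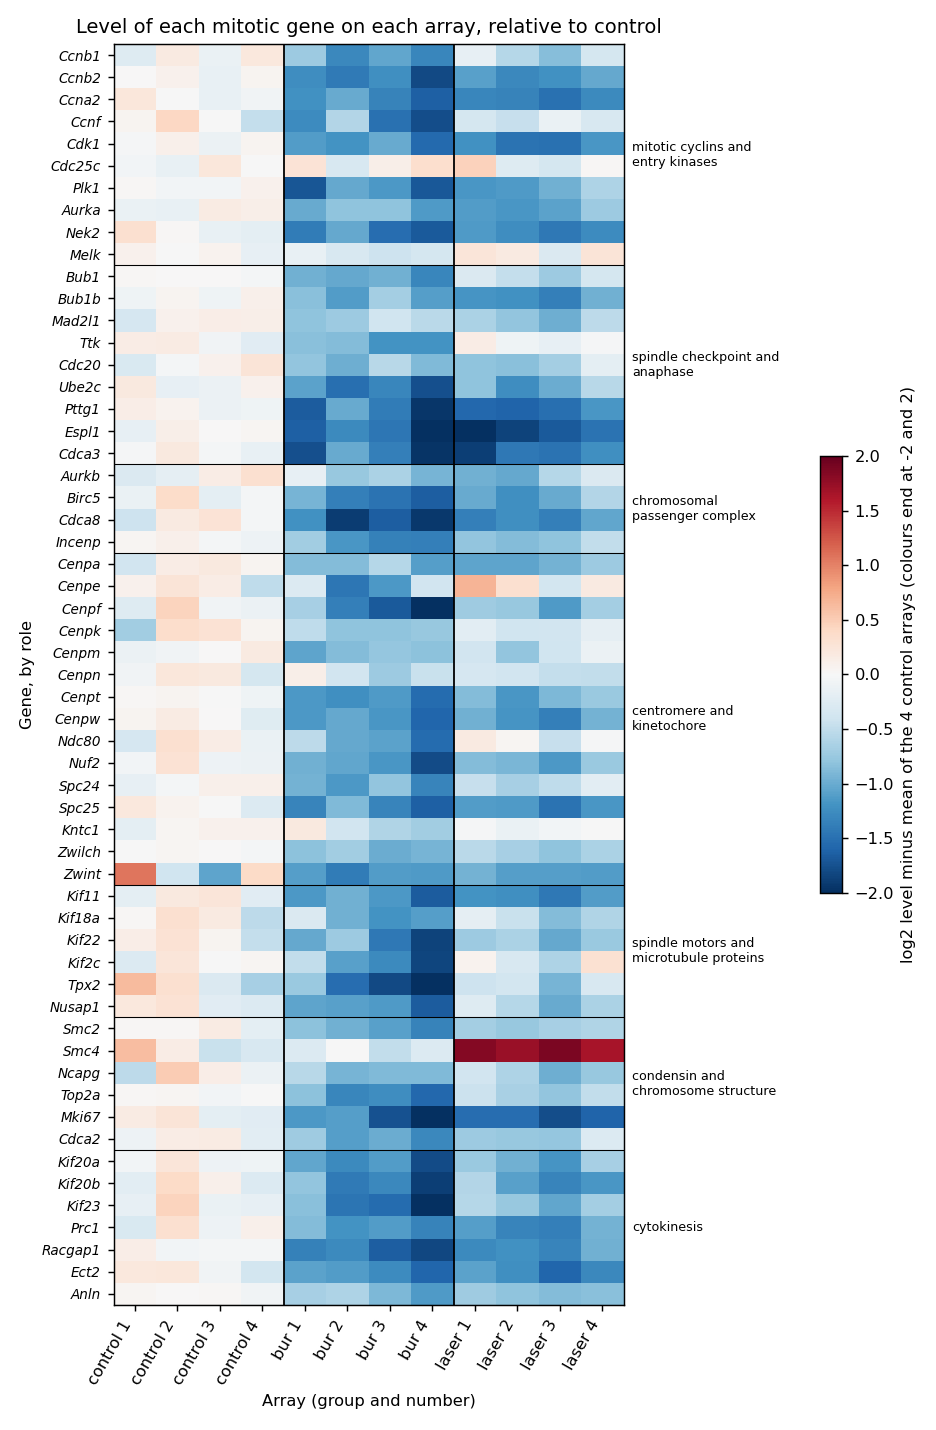
Log2 level of each of 57 mitotic genes (rows, grouped by role) on each of the 12 arrays (columns), as the difference from the mean of the 4 control arrays; blue is lower and red is higher, and colours end at -2 and 2. The bur columns are blue in most rows and pale or mixed for Cdc25c, Melk, Cenpn, Kntc1 and Smc4, the laser columns are near white for Ttk, Ndc80 and Kntc1, and Smc4 is red on all 4 laser arrays.

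Promoters of 5 of the genes called lower are shown: 4 that carry CHR and CCAAT letters, and Aurka, which carries neither. Each is the 150 bases before the gene start, from RefSeq on the GRCr8 build, read 5′ to 3′ on the strand of the gene. Capitals mark CHR letters, which are TTTGAA or TTCGAA, the letters CCAAT, and an E2F core, which is TTCCCGC or the same core with TTGGCGC letters, with TTCGCGC letters or with TTGCCGC letters, each on either strand and also where matches overlap. They are Ccnb2 at chr8:79981659-79981808 (minus strand), Cdk1 at chr20:19265143-19265292 (plus strand), Top2a at chr10:84473094-84473243 (minus strand), Mki67 at chr1:199952594-199952743 (minus strand) and Aurka at chr3:181560770-181560919 (minus strand).
Ccnb2: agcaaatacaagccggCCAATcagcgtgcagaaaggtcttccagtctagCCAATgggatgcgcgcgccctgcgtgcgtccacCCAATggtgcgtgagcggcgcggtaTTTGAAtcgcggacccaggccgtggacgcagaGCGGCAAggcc
Cdk1: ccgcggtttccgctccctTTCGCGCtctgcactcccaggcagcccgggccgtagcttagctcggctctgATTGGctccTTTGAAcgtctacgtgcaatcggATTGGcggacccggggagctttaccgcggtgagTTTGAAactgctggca
Top2a: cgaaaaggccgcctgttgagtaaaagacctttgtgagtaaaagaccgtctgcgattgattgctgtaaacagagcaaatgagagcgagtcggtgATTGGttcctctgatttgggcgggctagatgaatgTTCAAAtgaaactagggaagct
Mki67: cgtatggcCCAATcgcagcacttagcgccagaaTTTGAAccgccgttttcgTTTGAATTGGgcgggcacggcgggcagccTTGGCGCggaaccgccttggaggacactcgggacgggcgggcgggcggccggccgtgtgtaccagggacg
Aurka: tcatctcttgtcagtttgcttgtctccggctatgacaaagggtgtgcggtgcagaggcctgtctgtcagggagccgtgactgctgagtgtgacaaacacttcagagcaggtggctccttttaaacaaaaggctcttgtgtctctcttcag

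Ccnb2 holds 3 CCAAT boxes, at -134, -101 and -68, followed by a CHR match at -43, counted from the gene start. Cdk1 holds 2 inverted CCAAT boxes and 2 CHR matches in the stretch shown. Aurka, which fell as well, holds none of these letters there, and no match says only that these letters are not in this window.

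Letters of this kind were searched in the window from 250 bases before to 50 after the gene start, which the promoter table held for 47 of the 57 genes. CHR letters stood in 34 of the 47 promoters (72.3%), against 14.3% of the promoters of 11877 other genes tested and 19.5% of all 27457 promoters. CCAAT stood in 35 (74.5%), against 37.6% and 37.7%, and 24 promoters (51.1%) held 2 or more CCAAT, against 13.0% and 11.5%. Both CHR and CCAAT letters stood in 27 (57.4%), against 5.80% and 7.83%. E2F core letters stood in 9 (19.1%), against 15.7% and 10.0%, so this motif differed least from other tested genes.

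CHR matches lay close to the start in the mitotic genes. In the 25 bases before the start they stood in 19.1% of the promoters, against 1.07% of other genes, and in the 25 bases after it in 17.0%, against 0.892%. CCAAT letters were most frequent from 100 to 75 bases before the start, in 29.8% against 7.74%. Among the mitotic genes, 23 of 27 with both motifs, 7 of 7 with CHR alone, 7 of 8 with CCAAT alone and 4 of 5 with neither were called lower after the bur. After the laser these counts were 21 of 27, 6 of 7, 5 of 8 and 2 of 5. Other genes here are all tested genes outside the mitotic list, so they include the other cell cycle lists described further on. The part of those lists in the next shares was not counted. Among other genes, 121 of 689 with both motifs (17.6%) were called lower after the bur, against 8.83% of those with neither and 9.83% of all that have a promoter. After the laser these shares were 23.1%, 16.1% and 17.1%. Other genes with CHR letters and no CCAAT were called lower in 9.25% after the bur and 15.1% after the laser, close to those with neither. A match is a description of the letters and not a measured binding site.

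**Figure D2:**
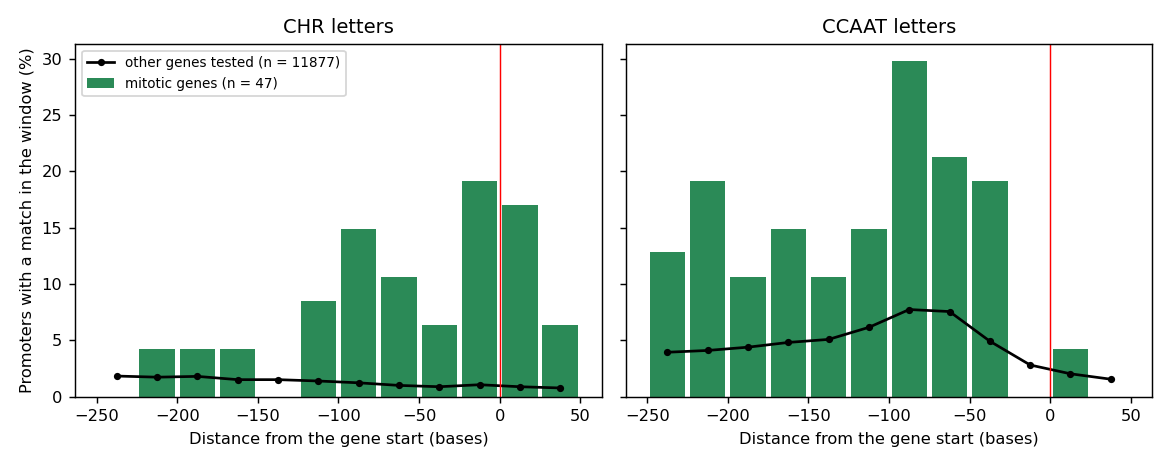
Share of promoters (%) with CHR letters (left) or CCAAT letters (right) in windows of 25 bases, by distance from the gene start (red line), for 47 mitotic genes (bars) and 11877 other genes tested (black line). CHR peaks beside the start at 19.1% and CCAAT at 29.8% between 100 and 75 bases before it, both above the black line.

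Of the 10 mitotic cyclins and entry kinases, 8 fell after the bur and 6 after the laser. Ccnb2, a B-type cyclin that activates Cdk1, read 11.39, 11.48, 11.24 and 11.44 on control arrays 1 to 4, 10.14, 9.97, 10.16 and 9.58 on the bur arrays and 10.30, 10.10, 10.17 and 10.37 on the laser arrays, in log2 of the normalized signal. Each cut array lay below each control array, and the bur and laser arrays overlapped. Its log2 fold change was -1.42 ± 0.14 (SE, n = 4 per group) after the bur, a level 0.373 of control (95% interval 0.300 to 0.464, adjusted p = 0.000268), and -1.15 ± 0.14 after the laser (adjusted p = 0.000201).

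Cdk1, the kinase that drives entry into mitosis, read 12.31, 12.43, 12.21 and 12.39 on control, 11.22, 11.14, 11.33 and 10.78 on bur and 11.12, 10.86, 10.84 and 11.17 on laser arrays. It fell by 1.22 ± 0.14 on the log2 scale after the bur (adjusted p = 0.000374) and by 1.34 ± 0.14 after the laser (adjusted p = 7.03e-05). Its groups did not overlap with control, and the level after the laser was 0.921 of that after the bur (95% interval 0.741 to 1.14).

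Ccna2, cyclin A, which acts in S phase and early mitosis, read 11.69, 11.47, 11.32 and 11.40 on control, 10.26, 10.45, 10.13 and 9.84 on bur and 10.16, 10.13, 9.98 and 10.20 on laser arrays. Its log2 fold changes were -1.30 ± 0.14 (adjusted p = 0.000336) and -1.35 ± 0.14 (adjusted p = 7.3e-05). A second probe of Ccna2 gave -1.21, called lower, for the bur and -0.44, not called, for the laser, so the size after the laser depended on the probe.

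Plk1, the polo kinase of centrosome maturation and mitotic exit, fell by 1.39 ± 0.18 and 0.97 ± 0.18 in the order bur and laser. Nek2, a kinase that separates centrosomes, fell by 1.41 ± 0.16 and 1.27 ± 0.16. Aurka, the kinase of spindle poles, fell by 0.94 ± 0.14 and 1.02 ± 0.14. These 3 kinases were called in both comparisons.

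Ccnb1, the other B-type cyclin of the list, and Ccnf, a cyclin that serves a ubiquitin ligase, fell after the bur, by 1.09 ± 0.19 and 1.28 ± 0.25. After the laser their values were -0.48 ± 0.19 (adjusted p = 0.0682) and -0.32 ± 0.25 (adjusted p = 0.353), neither called. Melk, a kinase abundant in dividing progenitors, had -0.31 ± 0.14 and 0.10 ± 0.14 and was not called. Cdc25c, a phosphatase that activates Cdk1, had the highest value of the list after the bur.

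Cdc25c read 5.19, 5.10, 5.47 and 5.24 on control, 5.52, 4.93, 5.36 and 5.58 on bur and 5.71, 4.99, 4.89 and 5.27 on laser arrays. The 3 groups overlapped throughout. Its log2 fold changes were 0.10 ± 0.20 (adjusted p = 0.759) and -0.04 ± 0.20 (adjusted p = 0.903). The sign for the bur turned with the 75th percentile scaling (-0.24) and with the mean of its 2 probes (-0.16), neither called.

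The 9 genes of the spindle checkpoint and anaphase fell after the bur, and 8 of 9 fell after the laser. Espl1, separase, the protease that opens cohesin at anaphase, had the lowest laser value of all 57 genes. It read 10.44, 10.73, 10.62 and 10.65 on control, 8.97, 9.34, 9.17 and 8.54 on bur and 8.53, 8.76, 8.92 and 9.14 on laser arrays. Its level after the laser was 0.293 of control (95% interval 0.221 to 0.388, log2 -1.77 ± 0.18, adjusted p = 5.94e-05) and after the bur 0.329 of control (log2 -1.60 ± 0.18, adjusted p = 0.000372).

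Pttg1, securin, which holds separase inactive until anaphase, fell by 1.503 ± 0.190 after the bur and by 1.46 ± 0.19 after the laser. Cdca3, a trigger of mitotic entry that the anaphase-promoting complex destroys, fell by 1.52 ± 0.21 and 1.503 ± 0.210. Ube2c, an E2 enzyme of that complex, fell by 1.41 ± 0.18 and 0.90 ± 0.18, and Cdc20, its activator in mitosis, by 0.80 ± 0.18 and 0.63 ± 0.18. The second Ube2c probe gave -0.97 ± 0.19 for the bur, called, and 0.33 ± 0.19 for the laser, not called. Separase, securin and Cdca3 were thus called lower in both comparisons with control and in each of 24 settings, while the value of Ube2c after the laser depended on the probe.

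Bub1b, the checkpoint protein BubR1, read 7.81, 7.96, 7.82 and 8.00 on control, 7.06, 6.78, 7.21 and 6.79 on bur and 6.72, 6.68, 6.53 and 6.94 on laser arrays. It fell by 0.93 ± 0.14 and by 1.18 ± 0.14 (adjusted p = 0.000991 and 0.000121). Mad2l1, the protein that binds Cdc20 while kinetochores are unattached, fell by 0.62 ± 0.15 and 0.73 ± 0.15. Of its other 2 probes, 1 was called lower in both comparisons, and A_44_P1082958 was called lower after the bur but gave 0.10 ± 0.17 after the laser, not called.

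The 2 checkpoint kinases had smaller values after the laser. Ttk, the kinase Mps1 that recruits the checkpoint, read 8.46, 8.47, 8.24 and 8.08 on control, 7.47, 7.45, 7.11 and 7.12 on bur and 8.45, 8.22, 8.14 and 8.28 on laser arrays. The laser arrays lay within the control range and above each bur array. Its log2 fold change was -1.02 ± 0.14 after the bur (adjusted p = 0.000755) and -0.04 ± 0.14 after the laser (adjusted p = 0.863).

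Bub1, the kinase that marks the inner centromere, read 9.83, 9.82, 9.82 and 9.77 on control, 8.85, 8.79, 8.85 and 8.51 on bur and 9.52, 9.32, 9.09 and 9.46 on laser arrays. The 3 groups did not overlap, with the laser arrays between the others. It fell by 1.06 ± 0.13 after the bur (adjusted p = 0.000415) and by 0.46 ± 0.13 after the laser (adjusted p = 0.0171).

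The chromosomal passenger complex corrects faulty attachments and guides cytokinesis. Of its 4 genes 3 fell after the bur and 4 after the laser. Cdca8, borealin, had the lowest bur value of the list: it read 6.15, 6.75, 6.84 and 6.52 on control, 5.36, 4.67, 4.91 and 4.63 on bur and 5.20, 5.33, 5.20 and 5.52 on laser arrays. It fell by 1.67 ± 0.20 after the bur (0.313 of control, 95% interval 0.233 to 0.422, adjusted p = 0.000374) and by 1.25 ± 0.20 after the laser (adjusted p = 0.000753). Birc5, survivin, fell by 1.36 ± 0.19 and 0.96 ± 0.19, and Incenp, the scaffold, by 1.14 ± 0.16 and 0.74 ± 0.16. A second Incenp probe gave 0.04 ± 0.18 after the laser, not called. Aurkb, the kinase of the complex, had -0.63 ± 0.22 after the bur, not called (adjusted p = 0.0604), and fell by 0.71 ± 0.22 after the laser (adjusted p = 0.0274).

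Of 15 centromere and kinetochore genes, 12 fell after the bur and 10 after the laser. Cenpt, which links centromeric chromatin to the Ndc80 complex, read 9.59, 9.62, 9.56 and 9.48 on control, 8.42, 8.34, 8.43 and 8.02 on bur and 8.70, 8.40, 8.66 and 8.82 on laser arrays. It fell by 1.26 ± 0.13 after the bur (adjusted p = 0.000274) and by 0.92 ± 0.13 after the laser (adjusted p = 0.000419). Cenpw, its histone-fold relative, fell by 1.23 ± 0.16 and 1.11 ± 0.16, and Cenpa, the histone H3 variant of centromeres, by 0.85 ± 0.16 and 0.95 ± 0.16.

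The 4 genes of the Ndc80 complex, which grips microtubules, had a wide range of values after the laser. All 4 fell after the bur: Ndc80 by 1.04 ± 0.23, Nuf2 by 1.24 ± 0.19, Spc24 by 1.05 ± 0.15 and Spc25 by 1.29 ± 0.17. After the laser Spc25 fell by 1.22 ± 0.17, Nuf2 by 0.92 ± 0.19 and Spc24 by 0.46 ± 0.15. Ndc80 had -0.07 ± 0.23 (adjusted p = 0.843), and read 8.16, 8.82, 8.65 and 8.37 on control, 7.97, 7.47, 7.42 and 6.96 on bur and 8.67, 8.54, 8.04 and 8.47 on laser arrays. Laser and control arrays overlapped, and all bur arrays were lower than both. The 4 probes of Ndc80 gave -0.07 to -1.08 for the laser and -1.04 to -1.34 for the bur.

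Cenpf, a large outer kinetochore protein, fell by 1.44 ± 0.27 and 0.82 ± 0.27. Cenpm, of the inner kinetochore, fell by 0.88 ± 0.15 after the bur. After the laser it had -0.42 ± 0.15 (adjusted p = 0.0467), a call held in 7 of 24 settings. Zwilch, of the complex that brings dynein and the checkpoint to kinetochores, fell by 0.86 ± 0.11 and 0.66 ± 0.11. Its other probes gave -0.44 ± 0.23 and -0.51 ± 0.22 after the bur, neither called. Kntc1, the partner Rod of Zwilch, had -0.37 ± 0.18 and -0.05 ± 0.18 and was not called. Zwint, which docks that complex, was called lower in both comparisons, but its control arrays read 11.45, 9.99, 9.33 and 10.78 against 8.99 to 9.29 on bur and 9.27 to 9.44 on laser arrays. The control spread of Zwint was thus wider than that of either cut group, and control 3 lay below laser 1. Its call held in 16 of 24 settings for the bur and in 15 of 24 for the laser. Cenpn, which binds the centromeric nucleosome, had -0.36 ± 0.18 and -0.42 ± 0.18, and Cenpe, a kinetochore motor, had -0.82 ± 0.30 and 0.20 ± 0.30; neither was called. Of the 4 bur arrays, 2 read Cenpe well above background.

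Of the 6 spindle motors and microtubule proteins, 6 fell after the bur and 3 after the laser. Kif11, the motor Eg5 that pushes spindle poles apart, fell by 1.23 ± 0.17 after the bur and by 1.24 ± 0.17 after the laser. Kif22, the chromokinesin Kid, fell by 1.26 ± 0.24 and 0.78 ± 0.24, and Nusap1, a microtubule bundler, by 1.24 ± 0.21 and 0.61 ± 0.21. The other 3 were called after the bur alone: Tpx2, a spindle assembly factor, with -1.52 ± 0.32 and -0.51 ± 0.32, Kif2c, the depolymerase MCAK, with -1.17 ± 0.28 and -0.14 ± 0.28, and Kif18a, a motor that dampens chromosome movement, with -0.89 ± 0.24 and -0.53 ± 0.24. Of the 4 bur arrays, 3 read Kif2c well above background.

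Of the 6 condensin and chromosome genes, 5 fell in each comparison. Smc2, a condensin ATPase, fell by 1.05 ± 0.13 and 0.68 ± 0.13, and Ncapg, a condensin subunit, by 0.81 ± 0.21 and 0.69 ± 0.21. Top2a, the topoisomerase that untangles sister chromatids, read 9.20 to 9.31 on control, 7.70 to 8.45 on bur and 8.48 to 8.84 on laser arrays, with no overlap between the groups. It fell by 1.23 ± 0.15 and 0.59 ± 0.15. Cdca2, which recruits a phosphatase to anaphase chromatin, fell by 1.02 ± 0.17 and 0.63 ± 0.17. Mki67 and Smc4 are described with their probes further on.

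The 7 cytokinesis genes fell in both comparisons, and their groups did not overlap with control. Racgap1, the GTPase-activating protein of the central spindle, had the smallest p of the list after the bur. It read 10.24, 10.05, 10.06 and 10.06 on control, 8.75, 8.83, 8.46 and 8.28 on bur and 8.82, 8.89, 8.78 and 9.14 on laser arrays. Its level was 0.348 of control after the bur (95% interval 0.280 to 0.433, log2 -1.52 ± 0.14, adjusted p = 0.000251) and 0.437 of control after the laser (log2 -1.19 ± 0.14, adjusted p = 0.000155).

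Kif23, the motor that pairs with Racgap1, fell by 1.48 ± 0.24 and 0.76 ± 0.24. Ect2, the exchange factor that activates RhoA at the equator, fell by 1.26 ± 0.17 and 1.29 ± 0.17, and Anln, anillin, the scaffold of the ring, by 0.83 ± 0.13 and 0.81 ± 0.13. Prc1, which bundles the midzone, fell by 1.13 ± 0.16 and 1.19 ± 0.16. Kif20a and Kif20b, kinesins of the midzone, fell by 1.31 ± 0.18 and 1.34 ± 0.24 after the bur and by 0.88 ± 0.18 and 1.04 ± 0.24 after the laser.

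The laser and bur groups were compared directly to see where the cutting methods differed. Laser arrays were higher for 14 of the 57 genes, lower for none, and 43 were not called, beside 25.8% of all genes called, 11.6% higher and 14.2% lower. The median log2 difference of the genes was 0.33, against -0.06 for all genes. In 10 genes all laser arrays lay above all bur arrays, against 13.9% of all genes, and 19.6% of all genes had all laser arrays below. The count moved with single arrays: it was 7 without laser 1, 7 without laser 4, 8 without bur 2, 8 without bur 3 and 9 without bur 4. Array weights gave 23.

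The 14 genes were Smc4, Ttk, Bub1, Ndc80, Top2a, Spc24, Ccnf, Kif2c, Cenpe, Ccnb1, Tpx2, Cenpm, Nusap1 and Kif23. Smc4, Ttk, Bub1, Top2a, Spc24 and Ccnf were called in each of 24 settings. The other probe of Smc4 was not called here (0.72 ± 0.28), so the value of Smc4 depended on the probe. The call held in 12 of 24 settings for Cenpm and in 8 of 24 for Kif23. For Nusap1 it held in 15 of 24, for Ccnb1 and Tpx2 in 17 of 24 each, and for Ndc80 in 23 of 24. For Cenpe it held in 16 of 23 and for Kif2c in 21 of 23, and both were dim on bur arrays, as given above. Ttk was 1.99-fold higher after the laser than after the bur (95% interval 1.60 to 2.46, log2 0.99 ± 0.14, adjusted p = 0.00057). Bub1 was 1.52-fold higher (1.25 to 1.84, log2 0.60 ± 0.13, adjusted p = 0.00597) and Ndc80 1.97-fold higher (1.39 to 2.78, log2 0.98 ± 0.23, adjusted p = 0.00948). With the mean of its 4 probes Ndc80 was not called (0.71, adjusted p = 0.0774). Top2a was 1.56-fold higher (1.23 to 1.98) and Ccnf 1.95-fold higher (1.33 to 2.85).

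Other genes were not called on their brightest probe. The ratio of laser to bur was 0.994 for Kif11 (95% interval 0.762 to 1.30), 0.965 for Ccna2 (0.774 to 1.20), 1.02 for Anln (0.840 to 1.23) and 1.03 for Pttg1 (0.770 to 1.37). The second probe of Ccna2 was called higher after the laser than after the bur (0.77 ± 0.26, adjusted p over probes = 0.0495), so this ratio depended on the probe. A dimmer probe was called higher as well for Ube2c (1.30 ± 0.19), Mad2l1, Racgap1, Incenp, Ncapg, Cenpw and Mki67. Of 18 genes with several kept probes, 10 had a probe called higher, so the split into called and not called depended on the probe. A gene with several probes has several chances of a call, and this count was not made for other genes. Bub1b had the lowest value of the list, a ratio of 0.844 (0.686 to 1.04, log2 -0.24 ± 0.14, adjusted p = 0.215), and with the mean of its 2 probes the sign turned (0.12).

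Signal and probe moved with this comparison. The laser arrays were the brighter ones before normalization, as given above. Of 18 mitotic genes with more than 1 kept probe, the dimmest probe gave a higher laser-to-bur value than the brightest in 14 (77.8%), against 50% of 4730 other genes. By probe rather than by gene, 25 of 84 mitotic probes were higher after the laser than after the bur (13.4% of all probes) and none was lower (13.9% of all probes). The part of probe and slide in these differences was not tested.

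**Figure D3:**
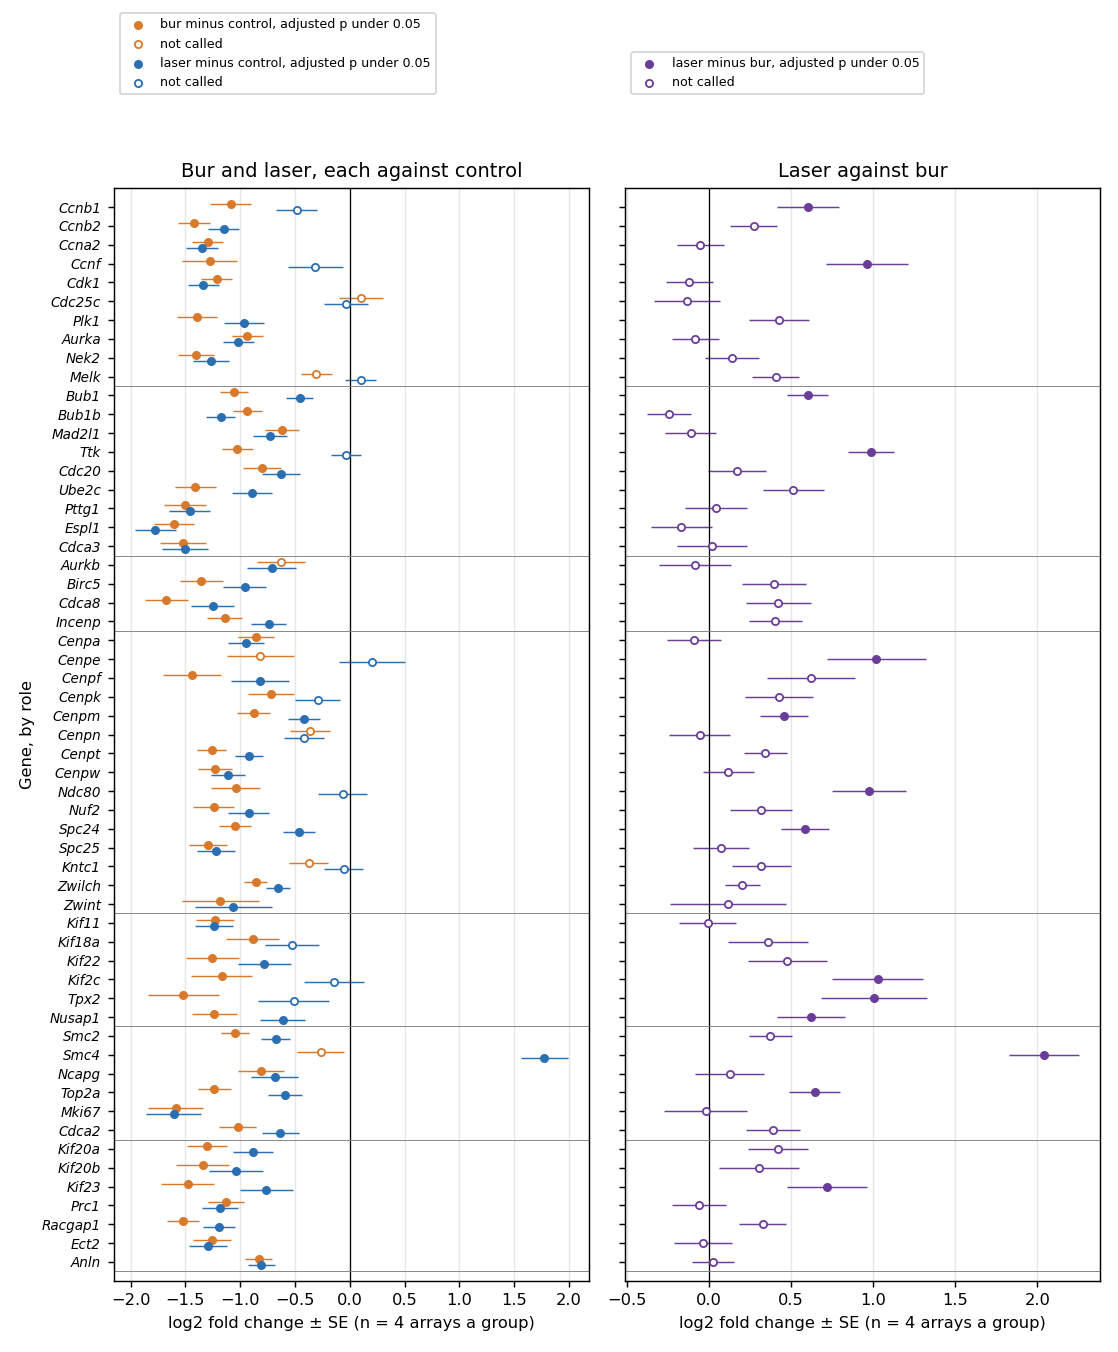
Log2 fold change of each mitotic gene (rows, by role) with its SE, n = 4 arrays a group: left, bur (orange) and laser (blue) against control; right, laser against bur (purple). Filled points passed an adjusted p under 0.05; on the left the filled points lie below 0 apart from Smc4 at 1.77 after the laser, the open points of Cdc25c, Melk and Cenpe reach above 0, and on the right the 14 filled points lie above 0, from 0.46 for Cenpm to 2.04 for Smc4.

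The probes of Mki67, Smc4 and Cenpk disagreed, and the first 30 of their 60 bases are shown for Mki67 and Smc4 because the reading of these genes turns on the probe. The deposited files place the Mki67 probes on chromosome 1 of the rn4 build, minus strand, and the Smc4 probes on chromosome 2, plus strand. Exons are not given, since no rn4 annotation was used. The sequences are in lower case, 5′ to 3′.
Mki67 A_44_P510940: gagaaactaagacatgacactaatattctt
Mki67 A_44_P1162955: cgaggggccaagaaagatgcaaaaactctg
Mki67 A_44_P1112631: cattgtatacaccaagaaattaagaacaag
Mki67 A_42_P576823: ctgtgcttaaggaaggaagctttgagcttt
Smc4 A_44_P1164486: ttagctcagtccctggccctgggttcagtc
Smc4 A_44_P123887: tttgcaaagagtaggcgaactggacaaaat

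Mki67 encodes Ki-67, the coat protein of mitotic chromosomes and a common marker of proliferation. Its 4 probes start at bases 8679, 9504, 9548 and 9702 of 1 transcript, in the order printed, and lie at chr1:195314463-195314522, chr1:195310343-195313027, chr1:195310299-195310358 and chr1:195310145-195310204. The 60 bases of the probe at 9504 span 2685 bases of the genome. The probe at 9702, the brightest on average, stands for the gene. It read 13.02, 13.11, 12.66 and 12.63 on control, 11.71, 11.75, 11.11 and 10.50 on bur and 11.33, 11.33, 11.09 and 11.25 on laser arrays. Its log2 fold change was -1.59 ± 0.25 after the bur and -1.61 ± 0.25 after the laser, both called, with no overlap with control.

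The probe at 9548, its nearest neighbour, went the other way after the laser. It read 8.22, 7.85, 7.41 and 6.53 on control, 7.26, 6.61, 5.95 and 5.30 on bur and 9.71, 9.56, 9.20 and 9.49 on laser arrays. Each laser array lay above each control and bur array, and the probe was called higher against control (1.99 ± 0.42, adjusted p over probes = 0.00428) and against bur (3.21 ± 0.42, adjusted p = 0.000242). Against control after the laser, the probe at 8679 fell by 1.32 ± 0.45 (adjusted p = 0.0436) and that at 9504 had -0.49 ± 0.33, not called. For the bur all 4 probes had values below 0, from -1.23 to -1.96, and 3 were called. The fall of Mki67 after the bur was thus read by several probes, while the value after the laser depended on the probe: the mean of the 4 probes gave -0.36 for laser against control, not called, and 1.22 for laser against bur (adjusted p = 0.0289).

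Smc4, the partner of Smc2 in condensin, was the gene called higher after the laser. Its probe with the higher mean, A_44_P1164486 at chr2:159001380-159001439, read 14.55, 14.08, 13.49 and 13.62 on control, 13.65, 13.92, 13.44 and 13.66 on bur and 15.76, 15.66, 15.82 and 15.59 on laser arrays. All laser arrays lay above the rest, while bur and control overlapped. The log2 fold change was 1.77 ± 0.21 for the laser (3.42-fold, 95% interval 2.48 to 4.73, adjusted p = 0.000155), -0.27 ± 0.21 for the bur (adjusted p = 0.394) and 2.04 ± 0.21 for laser against bur (4.11-fold, adjusted p = 7.14e-05).

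The other Smc4 probe, A_44_P123887 at chr2:159013946-159014005, read 8.63, 8.88, 8.36 and 8.00 on control, 7.88, 7.23, 6.78 and 6.54 on bur and 8.00, 7.91, 7.66 and 7.75 on laser arrays. It fell by 1.36 ± 0.28 after the bur (adjusted p over probes = 0.00605), and had -0.64 ± 0.28 after the laser, not called (adjusted p = 0.0971). For laser against bur it gave 0.72 ± 0.28, not called (adjusted p over probes = 0.0737). With the mean of both probes Smc4 was not called after the laser (0.57, adjusted p = 0.0604). The 2 probes are assigned to different transcript records. A count made after the values were seen found that A_44_P1164486 shares a run of 14 bases, on either strand, with 42 of 27457 RefSeq promoter windows, against 2 for the other Smc4 probe and 1 to 13 for the Mki67 and Cenpk probes. Whether this probe reads Smc4 RNA alone was not tested.

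**Figure D4:**
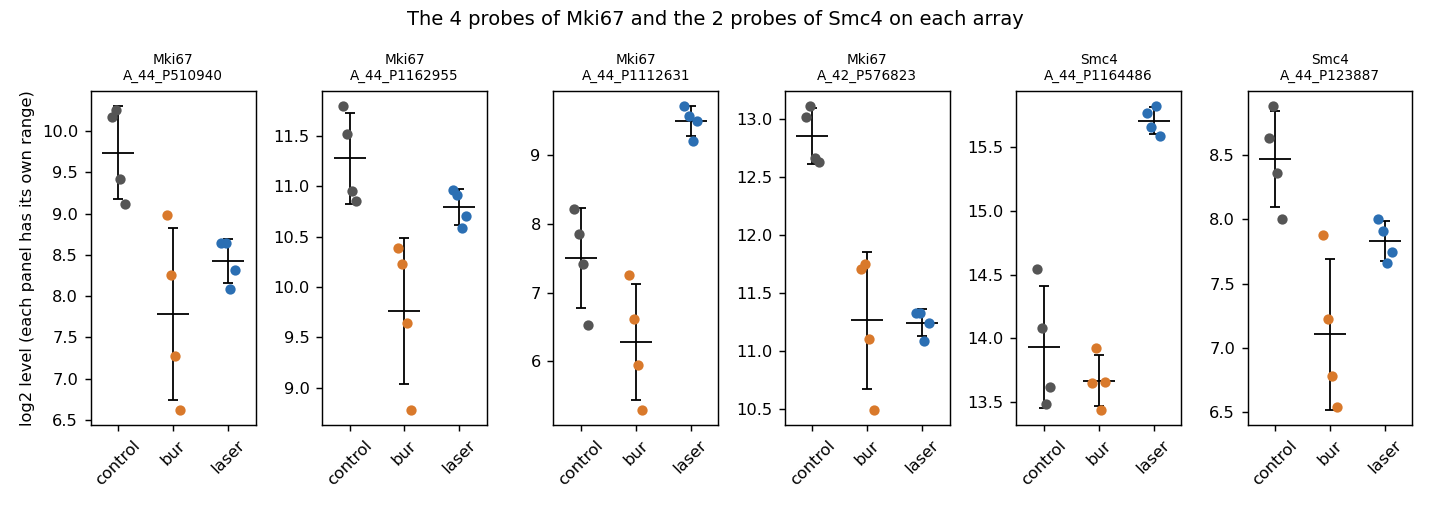
Log2 level of the 4 probes of Mki67, in transcript order, and the 2 probes of Smc4 on each array (points; grey control, orange bur, blue laser), with the mean and SD of 4 arrays in black; each panel has its own range. The laser arrays are above both other groups for Mki67 A_44_P1112631 (9.20 to 9.71) and Smc4 A_44_P1164486 (15.59 to 15.82), and below or among control for the other 4 probes.

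Cenpk, of the inner kinetochore, has 4 kept probes. The one with the highest mean read 8.63, 9.67, 9.62 and 9.39 on control, 8.81, 8.52, 8.53 and 8.57 on bur and 9.12, 8.92, 8.94 and 9.15 on laser arrays. Control 1 lay within the bur range. The gene fell by 0.72 ± 0.21 after the bur (adjusted p = 0.0274) and had -0.29 ± 0.21 after the laser. Its probes gave -1.25 to 0.62 for the bur, and the call was lost in 10 of the settings tried, among them normexp background correction (adjusted p = 0.0821). Of the 18 genes with several kept probes, all probes were called lower in 13 after the bur and in 4 after the laser (Ccnb2, Cenpw, Prc1 and Racgap1). Such counts by gene were not made for other genes. After the bur the brightest probe was called lower and another was not in 3 genes: Cenpk, Mki67 and Zwilch. In 10 genes the brightest probe was called lower after the laser and another probe was not: Bub1b, Ccna2, Cenpa, Incenp, Mad2l1, Mki67, Ncapg, Nek2, Ube2c and Zwilch. By probe, 71 of 84 mitotic probes were lower after the bur, beside 7.84% of all probes, and 51 were lower and 2 higher after the laser, beside 13.9% and 18.9%.

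The other cell cycle genes were described by lists, chosen with earlier results of these data known. Of 27 other kinetochore and checkpoint genes, 19 fell after the bur and 16 after the laser, with none higher and medians of -0.88 and -0.65. Hjurp, the chaperone of Cenpa, fell by 1.26 ± 0.17 and 1.15 ± 0.17, and Cenpq, of the inner kinetochore, by 1.31 ± 0.18 and 1.23 ± 0.18. Of 38 other spindle, centrosome and cytokinesis genes, 27 fell and 1 rose after the bur, and 25 fell and 3 rose after the laser. Aspm, a spindle pole protein, fell by 1.25 ± 0.14 and 1.19 ± 0.14. Hmmr, a spindle protein that also binds hyaluronan, rose by 1.76 ± 0.18 after the laser (adjusted p = 6e-05).

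Of 28 regulators of mitotic entry and of the G2 and M programme, 19 fell after the bur, and 15 fell and 2 rose after the laser. Foxm1, a transcription factor that activates mitotic genes, fell by 1.04 ± 0.11 and 0.70 ± 0.11 and was 0.34 ± 0.11 higher after the laser than after the bur (adjusted p = 0.0485). Mybl2, B-Myb, fell by 0.98 ± 0.13 after the bur, had -0.34 ± 0.13 after the laser (adjusted p = 0.0744), and was 0.64 ± 0.13 higher after the laser than after the bur (adjusted p = 0.00561). Cdc25b, a phosphatase that activates cyclin-dependent kinases, fell by 1.86 ± 0.21 and 1.60 ± 0.21.

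Of 32 DNA replication genes, 25 fell after the bur and 22 after the laser, none rose, and medians were -0.91 and -0.81. Dut, which clears dUTP, fell by 1.35 ± 0.15 and 1.45 ± 0.15, and Rrm1, a ribonucleotide reductase subunit, by 1.01 ± 0.13 and 0.92 ± 0.13. Of 12 cohesin genes, 6 and 8 fell and none rose. Rad21, the cohesin subunit that separase cuts, fell by 0.89 ± 0.14 and 1.04 ± 0.14.

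The next lists held calls in both directions, as some lists above did. Of all genes 9.74% were lower and 13.7% higher after the bur, and 16.2% and 18.3% after the laser. Of 16 subunits and partners of the anaphase-promoting complex, 2 fell and 2 rose after the bur, and 2 fell and 5 rose after the laser. The other 12 and 9 were not called, and medians were 0.00 and -0.12. Ube2s, an E2 enzyme that extends ubiquitin chains, fell by 1.09 ± 0.18 after the bur. Of 18 G1 cyclins, kinases and CDK inhibitors, 8 fell and 2 rose after the bur, and 7 fell and 2 rose after the laser. Cdkn1a, the inhibitor p21, rose by 1.95 ± 0.28 after the bur (adjusted p = 0.000899) and by 0.90 ± 0.28 after the laser (adjusted p = 0.0274), and was 1.05 ± 0.28 lower after the laser than after the bur (adjusted p = 0.0182). Ccnd1, cyclin D1, rose by 1.16 ± 0.21 and 1.66 ± 0.21. Ccne1, cyclin E1, fell by 1.69 ± 0.20 and 1.56 ± 0.20.

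Fewer markers of other marrow cells were called, though some of their medians were near those of the mitotic genes. Of 10 B-cell precursor markers none was called after the bur and 1 was lower after the laser, and the mean level was 6.93 to 7.44 on control, 6.73 to 7.22 on bur and 5.99 to 7.74 on laser arrays. Of 10 granulocyte precursor markers 3 fell after the bur and 1 rose after the laser, with means of 10.11 to 11.67, 9.45 to 10.48 and 9.85 to 11.16. Their median log2 fold changes were -1.08 after the bur and -0.55 after the laser. Of 7 megakaryocyte markers 2 fell in each comparison. Their medians were -1.24 after the bur and -0.99 after the laser, beside -1.18 and -0.78 for the mitotic genes. Mean megakaryocyte levels of both cut groups overlapped with control. Of 6 stem and early progenitor markers 1 fell in each comparison, with medians of -0.28 and -0.15. The shares of all genes called lower were 9.74% after the bur and 16.2% after the laser. A count of 1 in lists this short is thus close to what all genes gave. The defining markers Mpo, Elane, Cd79a, Pax5 and Pf4 were well above background on all 12 arrays, and Ltf was on none. Of 12 monocyte and macrophage markers 8 rose after the bur and 4 after the laser. Periosteal, osteoblast and osteocyte markers that were called rose, in the other direction than most mitotic genes. Of all genes 13.7% were higher after the bur and 18.3% after the laser. Of 9 periosteal and fibroblast markers 4 rose after the bur and 5 after the laser, and their mean level was 8.73 to 9.39 on control, 9.68 to 10.32 on bur and 9.62 to 10.36 on laser arrays, with no overlap with control. Of 9 osteoblast markers 3 and 5 rose, with means of 10.39 to 11.04, 11.05 to 11.42 and 11.51 to 11.80. Of 5 osteocyte markers 2 rose in each comparison. Of 7 osteoclast markers 1 rose in each, with medians of 0.13 and 0.12, so this list differed little from all genes. The part of these cell types in the values of the mitotic genes was not tested.

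**Figure D5:**
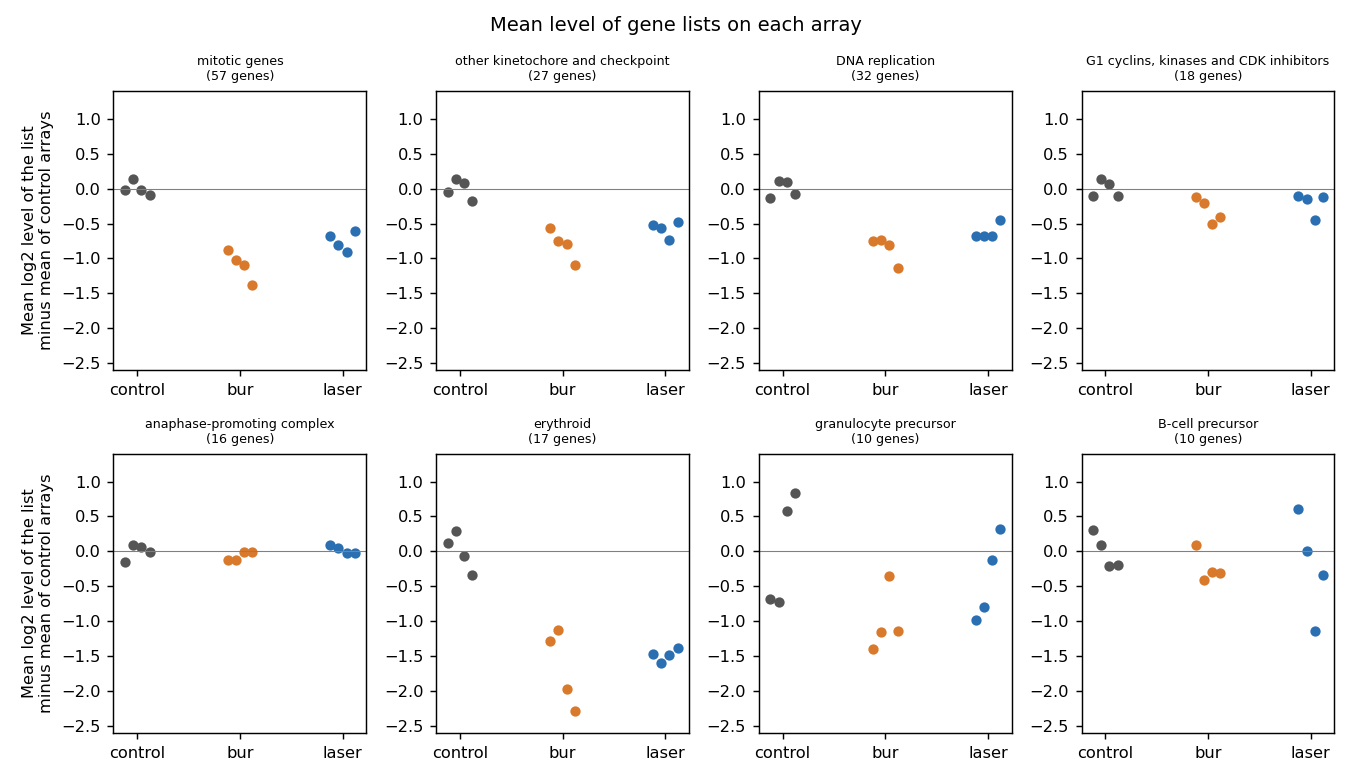
Mean log2 level of 8 gene lists on each array (points; grey control, orange bur, blue laser), as the difference from the mean of the control arrays. The mitotic, other kinetochore, DNA replication and erythroid lists lie below control on all 8 cut arrays, while the anaphase-promoting complex and B-cell precursor lists overlap with control.

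The authors' deposited tables of comparisons held 70 probes of the 57 genes. In the authors' deposited table for the bur, 54 of these were lower and none higher at an adjusted p under 0.05, beside 13.0% and 18.3% of all 21080 probes listed. In the authors' deposited table for the laser, 44 were lower and 1 higher, beside 18% and 21.2% of all probes. In the authors' deposited table of laser against bur, 19 were higher and none lower, beside 14.4% and 17.3% of all probes.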

How the data were processed

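Each scanner file, as deposited, gives spot intensity on a linear scale, made with Agilent Feature Extraction (version 11.0.1.1 in the submitters' processing notes). The authors' deposited table of expression is in log2 units. The authors' deposited tables of comparisons give a log2 fold change, a p-value and its adjusted form; how these were tested is not given in the sources used here. The number of arrays limits the precision.

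The processed signal was taken to log2, outlier and control spots were left out, and arrays were quantile normalized. A probe was kept if well above background on at least 4 of 12 arrays. Names came from RefSeq (GRCr8) through the accession, otherwise from the file. A gene was represented by its kept probe with the highest mean. All 12 arrays entered 1 fit with limma 3.58.1 in R 4.3.3, with Benjamini-Hochberg adjustment over 16382 genes (27196 for probes) within each comparison and calls under 0.05. The fit was tested on simulated data. Intervals are 95% intervals of the moderated fit.

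The members and lists were chosen with earlier results of these data known. Values on all arrays are given for, in each comparison, the 4 genes with the smallest p, the highest and the lowest, called genes opposite to most, and genes whose probes differ in called direction or by over 1.5 log2. A few others were added after their values were seen. Of other lists at most 4 genes a comparison with the smallest p were named. Alternatives were normexp background correction with an offset of 50, 75th percentile scaling, the authors' values, 2 other filters on dim probes, the mean of probes, fits of 2 groups, arrays left out, the replicate block, array weights and a floor at the background limit. A planned match of probes to protein sequences was not run.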

Additional observations from a re-analysis of the deposited data

Results flagged for a closer look

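Of 45 sets of 4 arrays (15 genes in 3 groups), 2 held an array far from the other 3 by Dixon's criterion, and chance flags about 1 in 20 such sets. Racgap1 on control 1 read 10.24, against 10.05 to 10.06 on the other control arrays. Bub1 on control 4 read 9.77, against 9.82 on the other control arrays. Both gaps are small beside the falls of these genes, since the other 3 control arrays lay very close together.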

How the results depend on the processing

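The count of genes lower after the bur was 47 to 55 over the alternatives tried and 47 to 53 when single arrays were left out. After the laser it was 34 to 44, with 34 to 40 when single arrays were left out. For laser against bur the count of 14 higher genes became 23 with array weights and 7 to 18 when single arrays were left out; it was 7 without laser 1 and without laser 4, 8 without bur 2 and without bur 3, and 9 without bur 4. The 24 settings include the main one. They also include, for each comparison, fits without an array of the third group, which leave its fold change unchanged. In these 24 settings, 46 genes were lower after the bur in each setting that tested them, and Kif2c, one of these, was tested in 23. After the laser 27 genes were lower in each. The call for the laser held in 7 settings for Cenpm, 13 for Nusap1, 14 for Cenpf, 15 for Ncapg and Zwint and 16 for Kif22. Of 361 values of named genes under alternatives, 339 kept direction and call, 13 lost the call and 9 changed sign. The sign changes were Bub1b for laser against bur (0.12 with the mean of probes), Cdc25c for the bur (-0.24 with 75th percentile scaling, -0.16 with the mean of probes), and Mki67 for laser against bur (0.32 with the authors' values, 1.22 with the mean of probes, 0.12 with array weights). With single arrays left out Mki67 ranged from -0.28 to 0.14, and its sign changed without bur 1 (0.13), bur 2 (0.14) and laser 3 (0.03). Among the lost calls, Cenpk for the bur accounts for 10, and the mean of probes ended those of Mki67 and Smc4 for the laser and of Ndc80 for laser against bur.

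Array numbers were not taken to pair the samples in the main fit. Deviations of same-numbered arrays correlated at -0.105 to 0.35 (median 0.141, 7 of 12 pairs over 0.1), against a median of -0.028 and 8 of 36 for other pairs. Correlations of same-numbered arrays thus tended to be higher. These arrays also shared an array column on the slides, so number and column cannot be told apart. The replicate block gave 49, 43 and 13 genes in place of 50, 43 and 14. The match of probes to proteins was not run. Dim probes limit Cenpe and Kif2c on bur arrays.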
